A study of Mus musculus with 8 samples.

Results

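The chemokine receptor genes *Ackr3*, *Cxcr4*, *Ccr1* and *Ccrl2*, the chemerin receptor gene *Cmklr1* and *Cxcl12*, which encodes the ligand shared by ACKR3 and CXCR4, were examined in CD11b+ cells isolated from mouse brain. These 6 genes, of 20308 in the count files, were chosen by name with their expression differences between CSF1 OE and control mice in these data already known. Their changes between the genotypes are therefore given with a standard error but without a p-value. All 6 passed the filter on low counts. CSF1 OE mice overexpress secreted CSF1, the growth factor of microglia, from a TRE/tTA transgene in a subset of GFAP+ cells. Controls were mice of the same F1 cross of C57Bl/6 with CD1 whose own transgene status is not given in the labels. All 8 mice (4 of each genotype) were 14 or 15 days old, and each gave 1 library from the right brain hemisphere after magnetic enrichment of CD11b+ cells.

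Chemokine receptors span the membrane with a bundle of helices and, in the conventional family, couple to inhibitory G proteins to steer migrating cells along a gradient of ligand. Atypical receptors bind chemokines without such coupling and instead recruit arrestins, internalize the ligand or present it. ACKR3 removes CXCL12 from the surroundings of cells that carry CXCR4, and CCRL2 holds chemerin for CMKLR1, so that *Cmklr1* is a chemoattractant receptor gene but not strictly a chemokine receptor gene. In brain, *Cxcl12* is a known product of blood vessels and meninges.

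Total counts ranged from 12053259 to 15475465 per library. All 10 microglial markers were detected, and their summed level ran from 19924 to 34409 CPM in controls and from 25495 to 35247 CPM with CSF1 OE, where CPM are counts scaled to a common library size after TMM normalization. In these CD11b+ cells *Csf1*, which the transgene drives in GFAP+ cells, overlapped between the genotypes. It had 282 ± 98.7 and 322 ± 107 CPM (mean ± SD, n = 4 each, control first). By RT-qPCR the study reported higher *Csf1* in brain hemispheres of young CSF1 OE mice than of controls. Markers of other cells were also present, and the summed levels of the genotypes overlapped for 12 of 13 lists of cell type markers. The exception was T and NK cells, low but higher with CSF1 OE (1.18 to 2.05 CPM) than in controls (0.269 to 1.06 CPM). *Ncr1* was at 0 in every library. *Klrb1c*, the 1 marker of that list tested, had a log2 fold change of 1.53 (SE 0.42). Of the B cell markers, *Pax5* was at 0, and the list summed to between 7.93 and 19.7 CPM over all mice. The highest of the other sums were those of the oligodendrocyte lineage, from 2713 to 5686 CPM in controls and from 1488 to 4706 with CSF1 OE. Mural, fibroblast, astrocyte and neuron sums reached 358, 745, 745 and 433 CPM at most. Red blood cell sums reached 936 CPM at most, with medians of 551 CPM in controls and 140 CPM with CSF1 OE. The most negative median log2 fold changes were those of red blood cell (-1.58), endothelial (-0.70) and border macrophage markers (-0.44). Medians were positive for microglial (0.08), neutrophil (0.26) and T and NK cell markers. By edgeR 0 marker genes were called, where 0.44% of all genes tested were. Equal cell composition was not tested.

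The upstream sequences of 4 of the genes are shown because they include both genes whose genotypes did not overlap, *Ackr3* and *Ccr1*, together with the other CXCL12 receptor gene and the atypical receptor gene with the highest level. Each run is the 250 bases before the RefSeq start site on GRCm38.p6, 5′ to 3′ on the strand of the gene. *Ackr3* is read from the plus strand of chr1:90203730-90203979, *Cxcr4* from the minus strand of chr1:128592300-128592549, *Ccr1* from the minus strand of chr9:123968693-123968942 and *Ccrl2* from the minus strand of chr9:111057519-111057768, the most upstream of 3 start sites listed for that gene. Capitals mark matches on either strand to the TATA box TATAAA, the GC box GGGCGG, the ETS core GAGGAA that PU.1 prefers or the kappaB site GGACTTTCC, which were chosen with the sequences in view.
Ackr3: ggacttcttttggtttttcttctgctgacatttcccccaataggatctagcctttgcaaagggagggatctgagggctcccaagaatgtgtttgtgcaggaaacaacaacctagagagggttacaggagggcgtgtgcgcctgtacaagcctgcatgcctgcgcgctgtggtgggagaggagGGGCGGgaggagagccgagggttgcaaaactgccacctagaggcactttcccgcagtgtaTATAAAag
Cxcr4: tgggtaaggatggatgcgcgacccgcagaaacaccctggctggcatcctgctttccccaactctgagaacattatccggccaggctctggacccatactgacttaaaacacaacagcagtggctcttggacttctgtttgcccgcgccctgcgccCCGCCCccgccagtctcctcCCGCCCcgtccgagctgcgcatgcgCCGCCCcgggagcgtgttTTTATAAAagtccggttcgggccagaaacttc
Ccr1: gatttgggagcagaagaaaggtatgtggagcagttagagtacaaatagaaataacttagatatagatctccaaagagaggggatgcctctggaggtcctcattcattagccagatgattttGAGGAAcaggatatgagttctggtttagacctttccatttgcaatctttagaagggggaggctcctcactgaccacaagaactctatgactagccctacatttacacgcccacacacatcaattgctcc
Ccrl2: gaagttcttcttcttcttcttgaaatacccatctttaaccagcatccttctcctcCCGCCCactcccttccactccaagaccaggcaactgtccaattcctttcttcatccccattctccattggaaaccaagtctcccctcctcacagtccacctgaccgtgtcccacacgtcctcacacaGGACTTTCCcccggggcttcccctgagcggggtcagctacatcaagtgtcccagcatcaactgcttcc

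The letters TATAAA lay 3 to 8 bases before the listed start of *Ackr3* and 25 to 30 bases before that of *Cxcr4*, where a match on the other strand overlaps it. They occur in 12.4% of the 32851 upstream runs of the same length in the table. *Ackr3* held 1 GC box and *Cxcr4* held 3, all on the other strand, against 32.7% of runs with any. The run of *Ccr1* held GAGGAA (23.3% of runs) and had a GC content of 43.6% with 1 CG, while that of *Cxcr4* was 61.2% GC with 19. The kappaB letters were matched in *Ccrl2*, from 60 to 68 bases before the start, and occur in 0.283% of runs. Of the genes not shown, *Cxcl12* held 5 GC boxes, 2 of which share a base, and *Cmklr1* held 1 GAGGAA. These are matches of letters and no binding was measured. The interferon-stimulated response element was also searched for and had no match in any of the 6 genes.

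*Ackr3*, on chromosome 1 from 90203980 to 90216751 (GENCODE M21, GRCm38), was lower in CSF1 OE mice and was the gene of this set with the smallest spread among control mice relative to its mean (a coefficient of variation of 5.90%). It had 30.4, 31.8, 30.6 and 27.6 CPM in control mice 1827, 1872, 1874 and 1934, from 405 to 467 counts. In CSF1 OE mice 1931, 1932, 1936 and 2019 it had 13.1, 18.1, 16.8 and 13.3 CPM, from 150 to 247 counts. The highest CSF1 OE mouse lay below the lowest control mouse. The means were 30.1 ± 1.78 and 15.3 ± 2.53 CPM (SD, n = 4 each), a ratio of 0.508. The log2 fold change, CSF1 OE against control, was -0.97 with a standard error (SE) of 0.13. In these bulk samples, fewer cells of a type and less RNA per cell cannot be told apart.

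**Figure D1:**
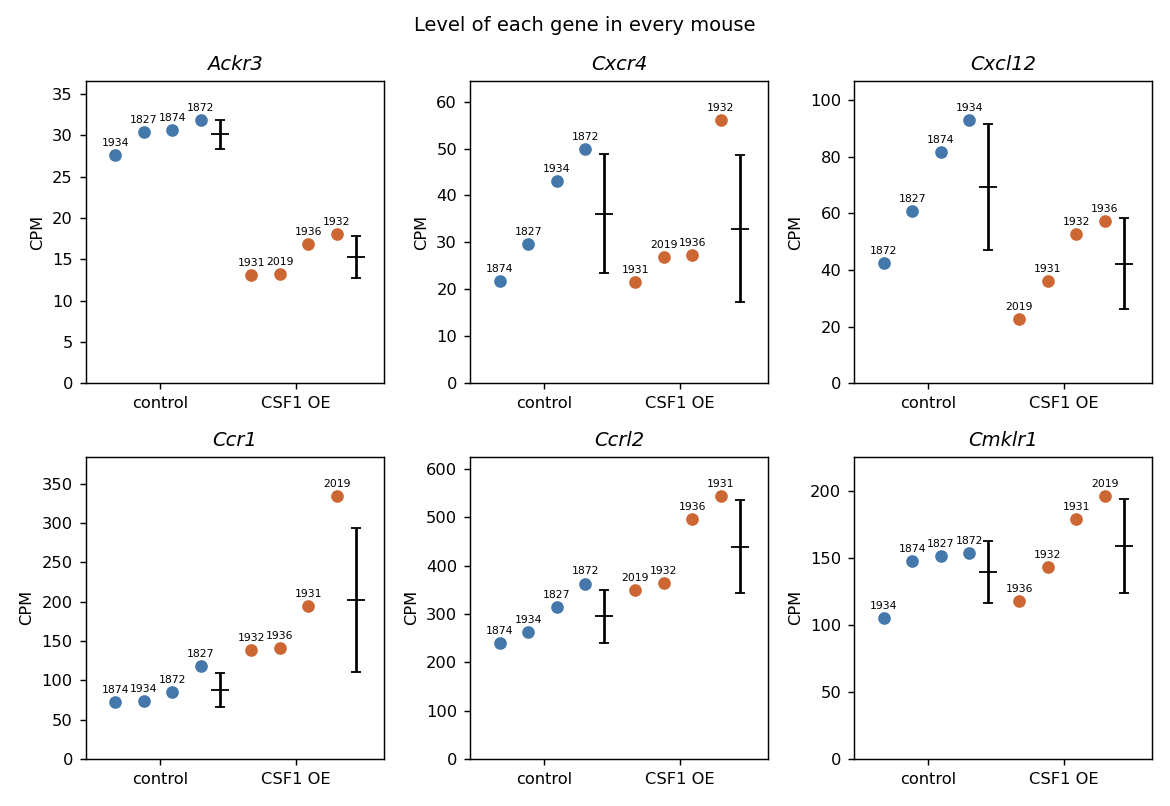
CPM of the 6 genes in every mouse, with the animal number beside each point and the mean with SD (n = 4) to the right of each genotype. The 4 CSF1 OE values of *Ackr3* (13.1 to 18.1 CPM) lie below the 4 control values (27.6 to 31.8 CPM), those of *Ccr1* lie above, and the other panels overlap.

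*Ackr3* was the 1 gene of the 6 called differentially expressed by edgeR, at a Benjamini-Hochberg adjusted p under 0.05 over 13407 genes and a fold under 0.7 or over its inverse, and 0.44% of all genes tested were called, 0.0522% as lower. The rule that chose the genes used this contrast, so nothing is read from that count. The call was also made in 10 of 15 other fits, which reuse these mice and are no separate support for it. It was not made without control mouse 1872 (log2 fold change -0.95), 1874 (-0.96) or 1934 (-1.0), or without CSF1 OE mouse 1931 (-0.90) or 1936 (-1.02), where between 3 and 10 genes were called in all. The log2 difference was -0.80 within the mice numbered 1931 to 1936 (1 control, 3 CSF1 OE). Within the other 4 (3 control, 1 CSF1 OE) it was -1.21. Both values rest on 1 mouse of a genotype. Any split of the mice had to place CSF1 OE lower, because every CSF1 OE value lay below every control value. The direction within these splits is therefore no check on the difference.

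Every expected count of *Ackr3* was a whole number, as it is where RSEM divides no read among genes. By contrast the counts of *Cxcr4*, *Cxcl12*, *Ccr1*, *Ccrl2* and *Cmklr1* held fractions in 6, 3, 4, 7 and 3 of the 8 libraries. No other annotated gene overlaps *Ackr3*.

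*Ackr2* and *Ackr4*, other atypical receptor genes, had lower levels than *Ackr3*. *Ackr2*, whose product degrades inflammatory CC chemokines, had 2.65 ± 0.997 CPM in controls and 1.49 ± 1.06 CPM with CSF1 OE, with a log2 fold change of -0.81 (SE 0.64, edgeR adjusted p = 0.554). *Ackr4*, which encodes a scavenger of CCL19 and CCL21, had 0.908 ± 0.0692 CPM and 0.602 ± 0.12 CPM, from 6 to 16 counts, with a log2 fold change of -0.59 (SE 0.29, edgeR adjusted p = 0.350). The CSF1 OE values of *Ackr4* lay below the control values, and those of *Ackr2* overlapped. *Ackr1* was not analysed here.

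*Cxcr4*, on chromosome 1 from 128588199 to 128592293, encodes the G protein-coupled receptor through which CXCL12 guides and retains leukocytes and neural precursors. It had 29.8, 49.9, 21.9 and 43.1 CPM in control mice 1827, 1872, 1874 and 1934 and 21.5, 56.0, 27.4 and 26.9 CPM in CSF1 OE mice 1931, 1932, 1936 and 2019. Mouse 1932 stood above the other CSF1 OE mice, and the genotypes overlapped over almost their whole range. The log2 fold change was -0.13 (SE 0.34), and its sign depended on single mice, at 0.06 without control mouse 1872, 0.03 without CSF1 OE mouse 1931 and -0.51 without CSF1 OE mouse 1932. Within the mice numbered 1931 to 1936 the log2 difference was -0.42 and within the others -0.24, with overlap in both. Each rests on 1 mouse of a genotype. Per kilobase of exon and within a mouse, the level of *Ackr3* was 0.345 to 0.757 of that of *Cxcr4* in control mice and 0.174 to 0.332 in CSF1 OE mice. These ranges did not overlap. The lower end in controls was 0.345 and 0.346 in mice 1872 and 1934. It was close to the upper end in CSF1 OE mice, 0.328 and 0.332 in mice 1931 and 1936. *Ackr3* alone already separated the genotypes, so the separation of this ratio is no further result. The ratio of *Cxcl12* to *Ackr3* overlapped, at 0.547 to 1.37 in control and 0.696 to 1.40 in CSF1 OE mice.

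*Cxcl12*, on chromosome 6 from 117168535 to 117181367, had 60.7, 42.5, 81.5 and 92.7 CPM in control mice 1827, 1872, 1874 and 1934. It had 36.1, 52.7, 57.4 and 22.6 CPM in CSF1 OE mice 1931, 1932, 1936 and 2019, so that 3 control mice lay above all CSF1 OE mice and 1872 lay among them. The means were 69.4 ± 22.3 and 42.2 ± 16.0 CPM, with a log2 fold change of -0.71 (SE 0.32). It was -0.53 without control mouse 1934, -0.51 without CSF1 OE mouse 2019 and -1.17 with a model term for animal number, a fit in which 9.5% of all genes tested were called and *Cxcl12* was among them. Within the mice numbered 1931 to 1936 (1 control, 3 CSF1 OE) and within the others (3 control, 1 CSF1 OE), the log2 differences were -0.95 and -1.39. Each rests on 1 mouse of a genotype.

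The level of *Cxcl12* followed that of endothelial markers from mouse to mouse. The summed level of 10 endothelial markers, all detected, was 849, 855, 1256 and 1417 CPM in control mice 1827, 1872, 1874 and 1934 and 635, 792, 981 and 396 CPM in CSF1 OE mice 1931, 1932, 1936 and 2019. After the log2 level of each was centred on its mean over the 8 mice, *Cxcl12* differed from this sum by 0.14 on average. The corresponding difference was 0.36 for *Ackr3*, 0.57 for *Cxcr4* and 0.93 for *Ccr1*. For *Cxcl12* the sums of 6 monocyte markers, most of which was *Fn1*, and of the oligodendrocyte lineage were also near, at 0.15 and 0.20. The values of a mouse share a library, and the part of endothelial cells in the change of *Cxcl12* was not tested.

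Border macrophage markers, 8 of 8 detected, summed to between 1584 and 2509 CPM in control and between 1277 and 1907 with CSF1 OE. Of the marker sums compared, which left out T and NK cells and B cells, that sum was nearest to *Ackr3*, with a mean difference of 0.33. Endothelial and monocyte sums were almost as near, both at 0.36. The parts of border macrophages and of endothelial cells in the level of *Ackr3* were not tested.

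**Figure D2:**
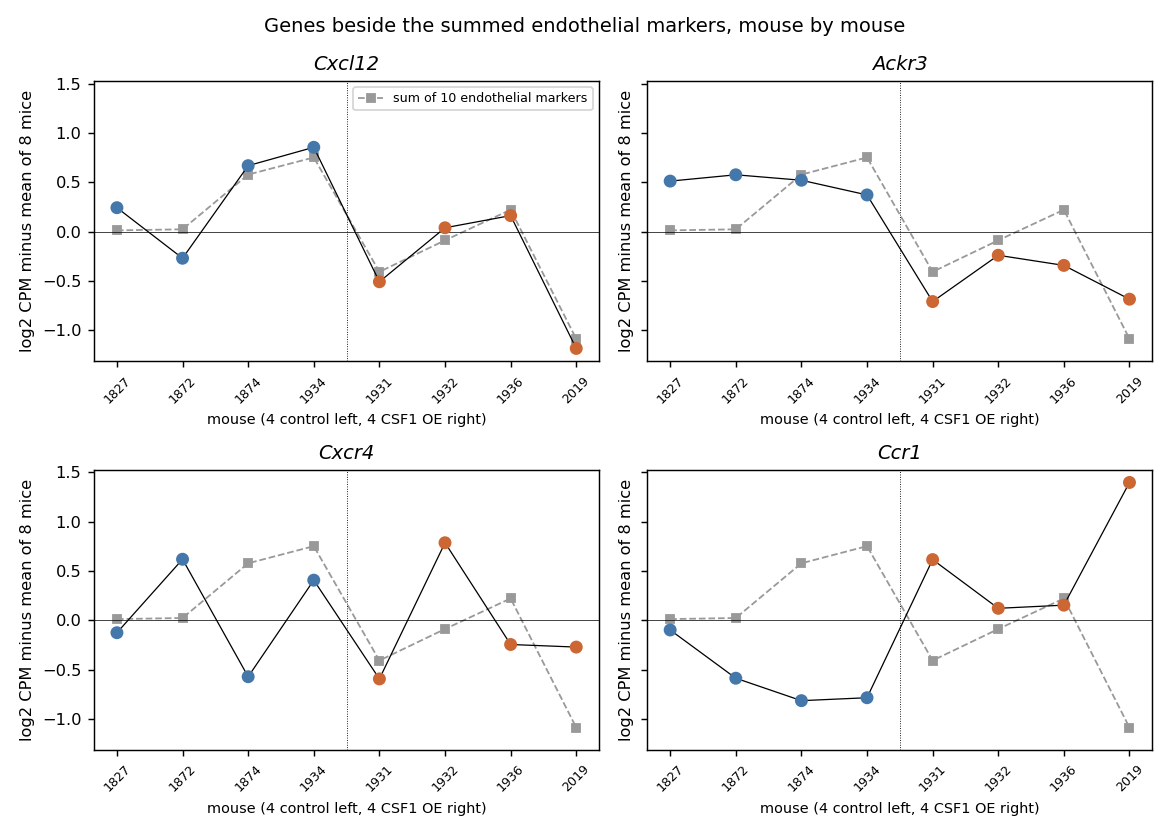
Log2 CPM of *Cxcl12*, *Ackr3*, *Cxcr4* and *Ccr1* in each mouse minus the mean of the 8 mice (blue control, orange CSF1 OE), with the sum of 10 endothelial markers treated the same way in grey. *Cxcl12* runs with the grey squares (mean absolute difference 0.14), while *Ackr3* (0.36) is nearly level among control mice and *Ccr1* (0.93) runs against them in mouse 2019.

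*Ccr1*, on chromosome 9 from 123962124 to 123968692, encodes a conventional receptor for inflammatory CC chemokines such as CCL3 and CCL5 and had the largest difference upward of the 6 genes. It had 119, 84.4, 72.1 and 73.6 CPM in control mice 1827, 1872, 1874 and 1934. In CSF1 OE mice 1931, 1932, 1936 and 2019 it had 194, 138, 141 and 334 CPM. Every CSF1 OE mouse was above every control mouse, and mouse 2019 was far above the other 3. The means were 87.2 ± 21.6 and 202 ± 91.8 CPM, a ratio of 2.32, with a log2 fold change of 1.21 (SE 0.30) that was 0.86 without mouse 2019. *Ccr1* and *Ackr3* were the 2 of 6 genes whose genotypes did not overlap, where 10.3% of all genes tested did not overlap, 3.45% with CSF1 OE below and 6.84% with CSF1 OE above. *Ccr1* was not called by edgeR, but it was by DESeq2, which called 3.09% of genes tested, and in the fit with the animal-number term (1.49 on the log2 scale). The log2 difference was 1.08 within the mice numbered 1931 to 1936 and 1.90 within the others. Both had to be positive, because every CSF1 OE mouse lay above every control mouse, and both rest on 1 mouse of a genotype.

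Markers of neutrophils, a cell type known to carry CCR1, summed to 51.5, 112, 84.5 and 56.1 CPM in control mice 1827, 1872, 1874 and 1934 and to 18.6, 63.3, 34.5 and 237 CPM in CSF1 OE mice 1931, 1932, 1936 and 2019, with all 9 markers detected. Mouse 2019 was highest in this sum and in *Ccr1*, but CSF1 OE mouse 1931, lowest in the sum, was above every control mouse in *Ccr1*. In centred log2 level, *Ccr1* differed from the neutrophil sum by 0.94 on average and from the microglial sum, the nearest of those compared, by 0.58. The part of neutrophils in the level of *Ccr1* was not tested.

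A related gene, *Ccr1l1*, had 2.44 ± 0.352 CPM in controls and 1.49 ± 0.368 CPM with CSF1 OE, from 16 to 39 counts. It was chosen after its values were seen, because it resembles *Ccr1* in sequence and RSEM can divide reads between similar genes. Every expected count of *Ccr1l1* was a whole number. *Ccr1* had 954 to 3774 counts, with fractions in 4 libraries. The log2 fold change was -0.71 (SE 0.26, edgeR adjusted p = 0.222), and the part of divided reads in the level of *Ccr1* was not tested.

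*Ccrl2*, on chromosome 9 from 111054486 to 111057519, encodes the atypical receptor that presents chemerin and is known to be induced in activated myeloid cells. It had 315, 363, 240 and 263 CPM in control mice 1827, 1872, 1874 and 1934 and 544, 364, 497 and 350 CPM in CSF1 OE mice 1931, 1932, 1936 and 2019. Only control mouse 1872 reached into the CSF1 OE range, above mouse 2019 and just below mouse 1932. The means were 295 ± 54.9 and 439 ± 96.4 CPM, with a log2 fold change of 0.57 (SE 0.18), from 0.45 without CSF1 OE mouse 1931 to 0.69 without control mouse 1872. Within the mice numbered 1931 to 1936 the log2 difference was 0.81. In the other mice, where CSF1 OE mouse 2019 lay among the controls, it was 0.22. Both values rest on 1 mouse of a genotype.

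*Cmklr1*, on chromosome 5 from 113612354 to 113650426, encodes the signalling receptor for chemerin on macrophages and microglia. It had 151, 153, 148 and 105 CPM in control mice 1827, 1872, 1874 and 1934 and 179, 143, 118 and 196 CPM in CSF1 OE mice 1931, 1932, 1936 and 2019. Values of the genotypes overlapped, and control mouse 1934 stood below the rest. The log2 fold change was 0.19 (SE 0.18). It was 0.07 without CSF1 OE mouse 2019, 0.09 without control mouse 1934 and 0.43 with the animal-number term. Within the mice numbered 1931 to 1936 (1 control, 3 CSF1 OE) and within the others (3 control, 1 CSF1 OE), the log2 differences were 0.46 and 0.38. Each rests on 1 mouse of a genotype. *Rarres2*, which encodes chemerin, was low, at 1.29 ± 0.464 CPM in controls and 1.26 ± 0.295 CPM with CSF1 OE. The antisense gene *Gm15736* lies within *Cmklr1* in the annotation and shares no exon base with it.

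Per kilobase of merged exons, *Ccrl2* had the highest level of the 6 genes in control mice (114 ± 21.1 CPM per kilobase, n = 4). *Cmklr1* followed with 40.9 ± 6.74, *Ccr1* with 30.8 ± 7.62, *Cxcr4* with 19.99 ± 7.0, *Ackr3* with 9.0 ± 0.531 and *Cxcl12* with 8.48 ± 2.72 CPM per kilobase. The ranges of neighbours in this order overlapped for *Cmklr1* and *Ccr1*, for *Ccr1* and *Cxcr4* and for *Ackr3* and *Cxcl12*. In CSF1 OE mice *Ccr1*, with 71.3 ± 32.4 CPM per kilobase, stood above *Cmklr1* with 46.6 ± 10.3. The per-length ratio of *Ccr1* to *Cmklr1* within a mouse ran from 0.588 to 0.943 in control and from 1.16 to 2.05 in CSF1 OE mice. *Ccr1* alone already separated the genotypes. The ratio of *Ccrl2* to *Cmklr1* overlapped, at 2.13 to 3.29 in control and 2.35 to 5.53 in CSF1 OE mice.

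**Figure D3:**
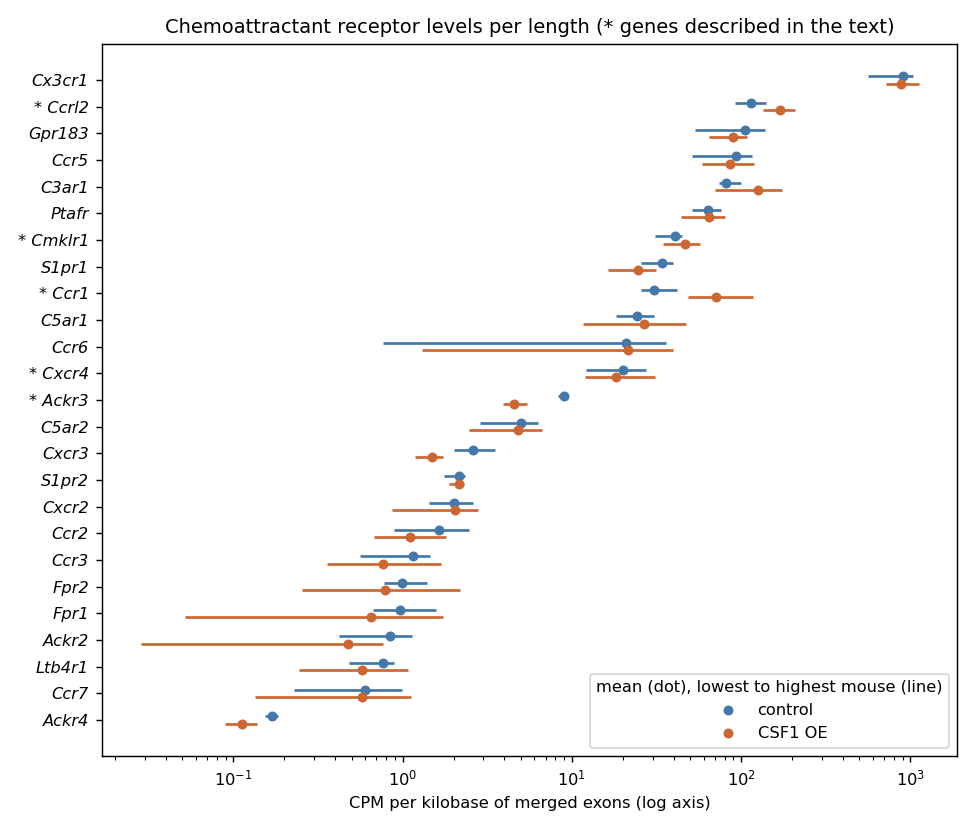
CPM per kilobase of merged exons on a log axis for the chemokine and other chemoattractant receptor genes that passed the filter, with the mean of 4 mice as a dot and the lowest to the highest mouse as a line for each genotype. *Cx3cr1* is highest and *Ackr4* lowest, and among the genes marked with an asterisk the lines of the genotypes do not meet for *Ackr3* and *Ccr1*.

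Among all chemoattractant receptor genes, *Cx3cr1*, the microglial fractalkine receptor gene, had the highest level in control mice with 902 ± 227 CPM per kilobase, and *Gpr183*, the gene of an oxysterol receptor, was highest outside the chemokine receptor family with 106 ± 40.1. *Cx3cr1* had a log2 fold change of -0.04 (SE 0.23, edgeR adjusted p = 0.940). Of 18 conventional chemokine receptor genes 10 were tested. The 8 of these other than *Ccr1* and *Cxcr4* were not called, 2 were higher and 6 lower, and their median log2 fold change was -0.08 against -0.03 over all genes tested. *Cxcr3*, the receptor gene for interferon-induced CXC chemokines, had 4.52 ± 1.13 CPM in controls and 2.58 ± 0.397 CPM with CSF1 OE, with every CSF1 OE mouse below every control mouse but no call (log2 fold change -0.80, SE 0.24, edgeR adjusted p = 0.161 and 0.0521 to 0.376 over its alternatives).

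The most positive log2 fold change of the 8, at 0.04, was that of *Ccr6*, a receptor gene for CCL20 (SE 0.98, edgeR adjusted p = 0.987). Its level varied within the genotypes more than between them. Control mouse 1934 had 1.77 CPM and the other control mice between 53.8 and 83.2 CPM, and CSF1 OE mouse 1932 had 3.01 CPM and the others between 48.1 and 92.4 CPM.

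Over the 5 lists of receptor, ligand and signalling genes, 48 genes other than the 6 were tested and 0 were called by edgeR. At an unadjusted p under 0.05 there were 7, or 14.6%, where 16.5% of all genes tested had one. DESeq2 called 0 of the 48, and the fit with the term for animal numbers, which called 9.5% of all genes, called 5 (*S1pr1*, *Adm*, *Ccl19* and *Gnai1* lower and *Ccl5* higher). The genotypes did not overlap in 6 of the 48, which is 12.5% against 10.3% of all genes tested.

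Of 10 tested genes for other chemoattractant receptors, 4 were higher and 6 lower, with a median log2 fold change of -0.15. The largest positive value belonged to *C3ar1*, the receptor gene for the complement fragment C3a, with 351 ± 52.6 and 539 ± 195 CPM (log2 fold change 0.62, SE 0.25, edgeR adjusted p = 0.266). The most negative belonged to *Fpr1*, a formyl peptide receptor gene, with 1 to 30 counts per library (log2 fold change -0.60, SE 0.74, edgeR adjusted p = 0.713). Neither was called.

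Of the ligand genes of these receptors other than *Cxcl12*, 10 were tested, 3 were higher and 7 lower, and the median log2 fold change was -0.09. *Ccl3*, which encodes a ligand of CCR1, had the highest level per length, 279 ± 68.3 CPM per kilobase in control mice, and a log2 fold change of -0.11 (SE 0.24, edgeR adjusted p = 0.835). *Ccl5*, another CCR1 ligand gene, had 0.439 ± 0.248 CPM in controls and 2.44 ± 1.11 CPM with CSF1 OE, from 1 to 54 counts, with every CSF1 OE mouse above every control mouse. On the log2 scale the fold change was 2.43 (SE 0.54, edgeR adjusted p = 0.0753 and 0.0478 to 0.227 over its alternatives). *Ccl19*, a ligand gene for CCR7 whose product is also reported to bind CCRL2, had 3.16 ± 0.782 and 1.34 ± 0.647 CPM, with every CSF1 OE mouse below every control mouse (log2 fold change -1.21, SE 0.40, edgeR adjusted p = 0.194 and 0.0418 to 0.408 over its alternatives).

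All 18 genes of receptor signalling and arrestins were tested and 0 were called by edgeR, with 2 at an unadjusted p under 0.05. Of the 18, 9 were higher and 9 lower. The arrestin genes *Arrb1* and *Arrb2*, whose products ACKR3 recruits, had log2 fold changes of 0.13 and 0.16 (SE 0.11 and 0.19, edgeR adjusted p = 0.587 and 0.698). *Grk6*, which encodes a kinase that phosphorylates active receptors, had 57.2 ± 4.67 CPM in controls and 75.1 ± 1.86 CPM with CSF1 OE, and all CSF1 OE mice were above all control mice. Its log2 fold change of 0.39 was below the fold threshold (SE 0.076, edgeR adjusted p = 0.0558 and 9.10e-05 to 0.186 over its alternatives, under 0.05 in 4 of 15). *Rgs2*, a regulator of G protein signalling, had the highest level per length (232 ± 55.3 CPM per kilobase in control), and *Rgs18* had the most negative log2 fold change, -1.17 (SE 0.41, edgeR adjusted p = 0.209).

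**Figure D4:**
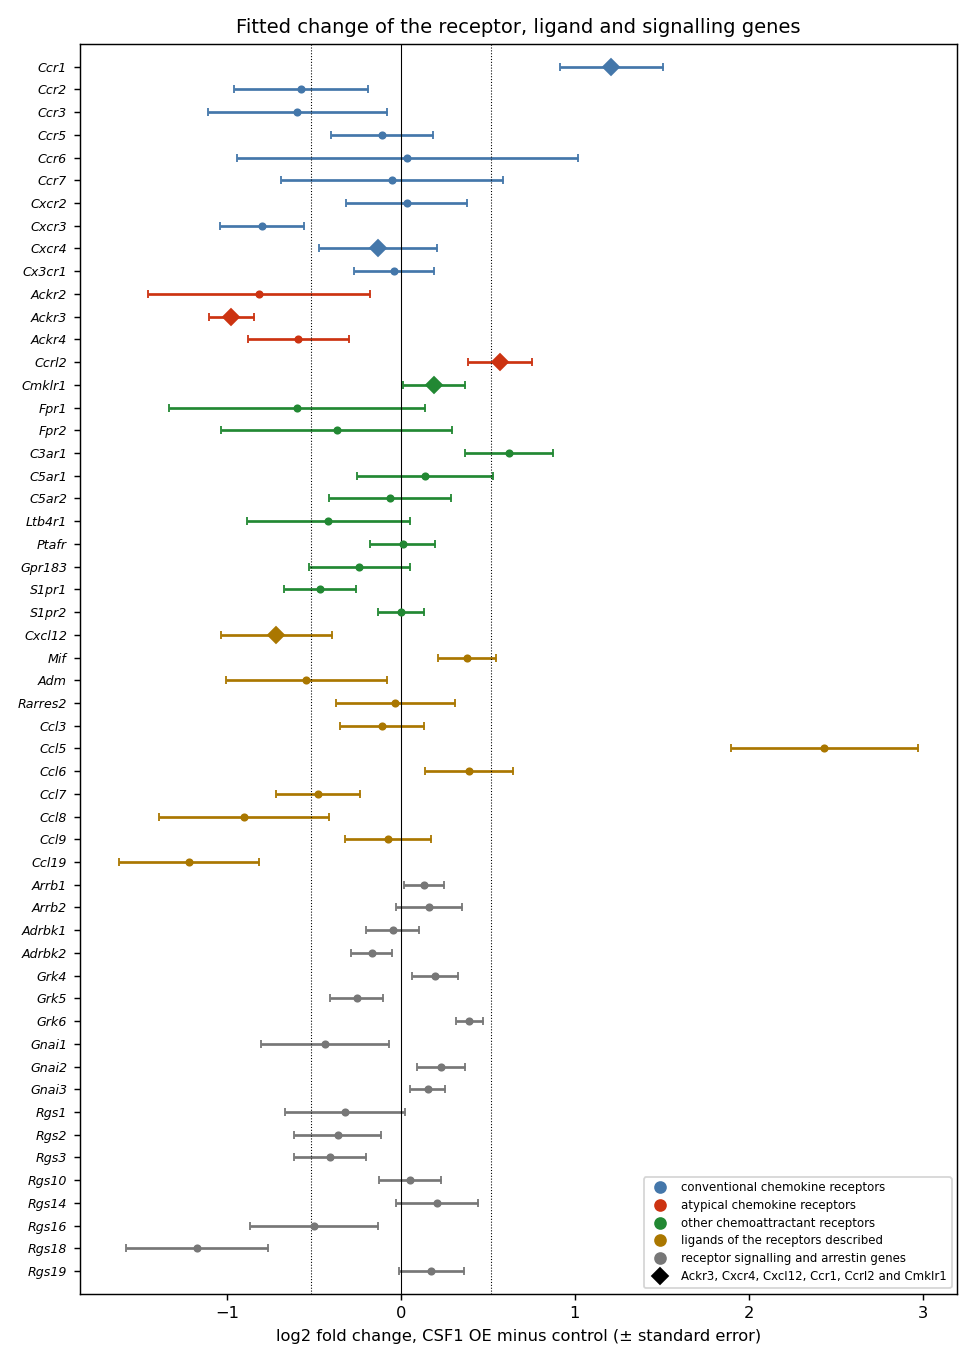
Log2 fold change of CSF1 OE against control with its standard error for every tested gene of the 5 lists, coloured by list, with diamonds for the 6 genes described and dotted lines at the fold threshold of 0.7 and at its inverse. *Ackr3* (-0.97) and *Cxcl12* (-0.71) lie outside the dotted lines on the lower side and *Ccr1* (1.21) and *Ccrl2* (0.57) on the upper side, and the error bar of *Ccr6* (0.98) is the widest.

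The genes whose centred log2 CPM over the 8 mice was nearest to that of *Ackr3* were *Srpk3*, *Tmem204* and *Gm3558*, with mean absolute differences of 0.11, 0.12 and 0.13. *Tmem204* had 63.1 ± 7.0 CPM in controls and 32.3 ± 4.19 CPM with CSF1 OE. For *Cxcl12* they were *Bcl6b*, *Mfsd7c* and *Kdr* (0.061, 0.070 and 0.092), of which *Kdr*, the gene of a vascular endothelial growth factor receptor, is in the list of endothelial markers. For *Ccr1* they were *Gm4070*, *Emp3* and *Cd52* (0.15, 0.19 and 0.21), and *Cd52*, which encodes a leukocyte surface glycoprotein, had 14.2 ± 5.14 and 36.3 ± 9.08 CPM. *Rilpl2*, *Rhbdf2* and *Mfsd12* were nearest to *Ccrl2* (0.089, 0.10 and 0.12), and *Pqlc2* and *Ehbp1l1* were near to *Cmklr1* (0.058 and 0.062). *Zkscan14*, *Spdya* and *Plscr1* were nearest to *Cxcr4* (0.14, 0.14 and 0.17).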

How the data were processed

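RNA of CD11b+ brain cells from 4 control and 4 CSF1 OE mice was measured, with 1 library per mouse, and groups were taken from the labels. Bowtie 1.0.0 and RSEM 1.2.7 were used by the authors to make the deposited expected counts per gene symbol, without normalization, on mm10 per the labels; the annotation and strand setting are not given in the sources used here. The deposited series table holds a signal, which the authors made by dividing these counts by 1 size factor per library. With 0 columns unmapped, no sample was left out.

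Expected counts were rounded, and the quasi-likelihood test of edgeR 4.0.16 (R 4.3.3, TMM factors, filterByExpr) was used in place of the study's EBSeq. Log2 CPM used a prior count of 2, and a floor of 3 counts was 0.177 to 0.266 CPM, which covers counting error only. Alternatives were DESeq2 1.42.0, upper-quartile factors, other filters, a robust prior, limma 3.58.1 on log2 of the deposited signal plus 1, a term for animal numbers 1931 to 1936, other thresholds and each mouse left out. The functions were tested on simulated data. Exon lengths and positions came from GENCODE M21, which uses GRCm38, the assembly also named mm10.

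The 6 genes, the 5 lists and the 13 marker lists were chosen with earlier results of these data known. Genes named are the 6, each called list gene, the tested list gene other than these with the largest rise, the largest fall and the highest control level per length in each list, and the 3 genes nearest to each of the 6 in centred log2 CPM, of which 1 is not reported here. *Arrb1*, *Arrb2*, *Rarres2*, *Csf1*, *Ccr1l1*, *S1pr1*, *Adm*, *Gnai1* and single marker genes fall outside this rule and were chosen after their values were seen. Nothing shows that the mice of a genotype came from separate litters, so p-values measure the spread between these mice. The labels give no sequencing batch.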

Additional observations from a re-analysis of the deposited data

Results flagged for a closer look

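In groups of 4 mice, a value was picked out where its gap to the nearest other mouse exceeded Dixon's critical share of the range of its genotype. This held in 2 of the 12 groups formed by the 6 genes and the genotypes, and chance does so in about 1 of 20 groups. *Cxcr4* in CSF1 OE mouse 1932 was at 56.0 CPM, above 21.5 to 27.4 CPM in the other CSF1 OE mice and close to control mouse 1872 at 49.9 CPM. *Cmklr1* in control mouse 1934 was at 105 CPM, below 148 to 153 CPM in the other control mice. The same control mouse had the lowest summed level of microglial markers, 19924 CPM, and mouse 1932 had 3.01 CPM of *Ccr6*.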

How the results depend on the processing

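The log2 fold changes of the 6 genes moved by less than 1 SD between mice under all 15 alternative fits. The direction was the same throughout for *Ackr3* (-1.06 to -0.90), *Cxcl12* (-1.17 to -0.51), *Ccr1* (0.86 to 1.49), *Ccrl2* (0.45 to 0.69) and *Cmklr1* (0.07 to 0.43), and not for *Cxcr4* (-0.51 to 0.06). For *Ackr3* and *Ccr1*, whose genotypes did not overlap, leaving a mouse out could hardly change it. The 59 genes called in all became 414 with DESeq2, 19 with upper-quartile factors, 104 with limma, 1273 with the term for animal numbers and 3 at an adjusted p under 0.01, and 3 to 164 with a mouse left out. The share higher in CSF1 OE was 88.1%, against 62.1% with DESeq2 and 23.7% with the term for animal numbers. The causes were not tested. The conventional receptors had 1 call with DESeq2 and 1 with the term for animal numbers, which also gave 1 among other chemoattractant receptors, 4 among ligands and 1 among signalling genes, in place of 0. The atypical receptors had 1 call, 0 at an adjusted p under 0.01 and 0 to 1 with a mouse left out. Genes whose genotypes did not overlap numbered 1379, and 1624 to 2465 with a mouse left out, where fewer mice make this easier. No paired analysis was possible because the labels give nothing that pairs mice across the genotypes. Precision is limited at low counts, as for *Ackr4* and *Fpr1*.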
